A study of Mus musculus with 4 samples.

Results

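The T cell receptor (TCR) proximal signalling genes were examined in splenic regulatory T (Treg) cells of mice with a conditional deletion of Setd2 (KO) and of littermate controls (CTRL). The set held 37 genes, chosen by name for their place in the CD3 complex, among the receptor kinases, adaptors, surface co-receptors, brakes and phosphatases, or in the NFAT family. All 37 were among the 24087 genes of the expression table and passed the filter on low values that left 11399 genes for testing. Treg cells were sorted as CD3+CD4+YFP+ from spleens of C57BL/6 mice at steady state, and RNA was enriched with oligo(dT) before sequencing. KO libraries came from Foxp3Cre-YFPSetd2f/f mice, in which both alleles of Setd2, the gene of the H3K36me3 methyltransferase, are floxed. CTRL libraries came from Foxp3Cre-YFPSetd2f/+ littermates, which carry the same Cre and 1 floxed allele, so CTRL cells are not wild type, and Cre can delete that allele in them too. The Cre is driven from the Foxp3 gene and acts in cells that express Foxp3. Each genotype had 2 libraries, named CTRL 1 and CTRL 2 or KO 1 and KO 2, and each library was made from cells of 2 pooled mice. The study used age-matched young adult mice of both sexes in general, and the labels give no age or sex for each library.

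When a TCR meets its ligand, Lck phosphorylates motifs in the tails of the CD3 chains, Zap70 docks there, and Zap70 in turn phosphorylates the scaffold Lat and the adaptor SLP-76. Phospholipase C gamma 1, recruited to this scaffold, makes diacylglycerol, which acts on Rasgrp1 and protein kinase C theta, and inositol trisphosphate, which raises calcium and sends NFAT factors to the nucleus. Phosphatases, ubiquitin ligases and diacylglycerol kinases limit the signal. Treg cells are selected by self-reactive receptors and need continued TCR signals for their suppressive function, so the level of these components is of interest in them.

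The TCR signalling genes changed little in KO. At an adjusted p under 0.05 (limma, Benjamini-Hochberg over all genes tested), 2 of the 37 genes were higher in KO, Zap70 and Nfatc1, and 1 was lower, Themis. The changes of the 3 were modest, with ratios of mean FPKM (fragments scaled by gene length and library total) in KO to CTRL of 1.24, 1.22 and 0.773. Among all genes tested 5.10% were called higher and 4.65% lower, so 5.41% and 2.70% of the TCR signalling genes lay near or below the background. Their median log2 fold change was -0.018, compared with -0.022 for all genes tested, with 17 genes above 0 and 20 below. Over the alternative settings and the fits with 1 library left out, the median of the set ranged from -0.053 to 0.032 and changed sign, for example to 0.028 without CTRL 2 and 0.031 without KO 1. The fold changes ran from -0.34 (Themis) to 0.31 (Zap70), and 0 of the 37 exceeded 0.5 in size, whereas 8.74% of all genes did. The genes tested as a whole were measured less closely (median standard error 0.087, compared with 0.063 for the set), so that share is not a like background. All fold changes are of log2(FPKM + 1), KO over CTRL.

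The genes were abundant and closely measured. The median gene of the set stood at the 93.7th percentile of mean FPKM among the genes tested, and the lowest, Ptpn2, at the 43.8th. Behind each value lay at least 1573 reads (Themis) and up to at least 74447 reads (Ptprc). The replicate libraries of a genotype differed by a median coefficient of variation of 2.43%, and by at most 15.5% (Malt1 in CTRL). The 95% interval of the log2 fold change stayed within 0.5 of 0 for 35 of the 37 genes, the exceptions being Themis and Cbl, and within 0.25 of 0 for 13 genes. Both KO libraries lay above both CTRL libraries for 14 genes (37.8%, compared with 29.0% of all genes tested) and below them for 13 genes (35.1%, compared with 35.5%). In the other 10 the genotypes overlapped. The summed FPKM of all 37 genes was 5867 and 6051 in CTRL and 5836 and 6003 in KO, so the libraries of both genotypes interleaved.

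**Figure D1:**
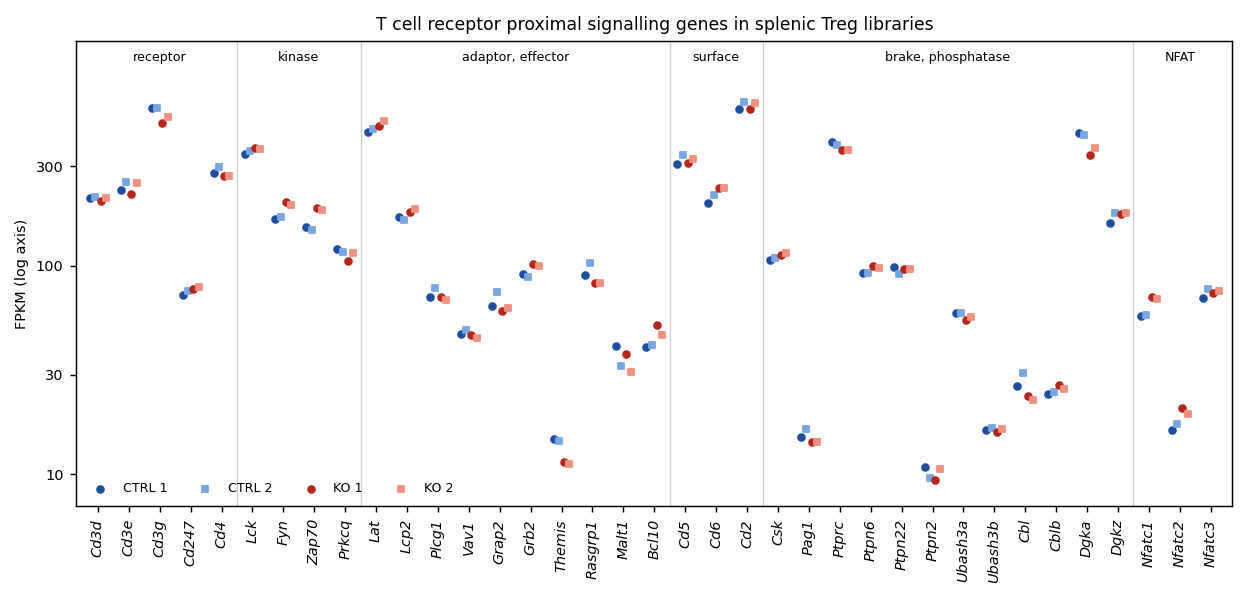
FPKM of each of the 37 TCR signalling genes (y axis, log scale) in CTRL 1, CTRL 2, KO 1 and KO 2, grouped by role along the x axis. Points of one gene sit close together, and the levels span from about 9.37 FPKM (Ptpn2 in KO 1) to 613 FPKM (Cd2 in CTRL 2).

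The libraries were otherwise alike in depth. At least 30535417 to 33137794 reads stood behind the 4 libraries. CTRL 1 stood apart with 19100 genes above 0, compared with 15913 to 16410 in the others. Setd2 itself, read over the whole gene, was lower in both KO libraries than in both CTRL libraries (log2 fold change -0.24, adjusted p 0.0970 by limma), and did not pass the threshold. The study reported Setd2 protein (flow cytometry) as abrogated and H3K36me3 (western blot) as greatly reduced in splenic KO Treg cells. RNA read over the whole gene measures neither. Foxp3 was at 121 and 139.8 FPKM in CTRL, compared with 112 and 119 in KO (log2 fold change -0.17, adjusted p 0.238 by limma), and Il2ra, another Treg marker, was also lower in both KO libraries (log2 fold change -0.35, adjusted p 0.138 by limma). The Treg marker Ikzf2 was higher in both KO libraries (log2 fold change 0.17, adjusted p 0.106 by limma). Ctla4 and Tnfrsf18 overlapped between genotypes, with log2 fold changes of 0.12 and 0.097. Of 5 T cell markers, the 4 in the table were above 0 in each library, as were the 5 Treg markers. Markers of other cells were present, and not evenly. The summed FPKM of 7 B cell markers was 919 and 659 in CTRL and 1279 and 1186 in KO, of which Ighm made up at least 96.7%. The sum of 7 myeloid markers was 207 and 126 in CTRL and 271 and 102 in KO, that of 5 erythroid markers (4 in the table) 22.5 and 4.16 in CTRL and 38.4 and 11.4 in KO, that of 4 NK cell markers 11.6 and 9.94 in CTRL and 15.6 and 22.0 in KO (Gzma was the marker that passed the threshold, with a log2 fold change of 1.04, and Ncr1 was lower in both KO libraries), and that of both CD8 T cell markers 8.49 to 11.4. In bulk libraries, fewer cells of a type and less RNA per cell cannot be told apart.

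The promoters of Zap70, Themis, Cd3g and Cd3d are shown for orientation. They are RefSeq windows (GRCm38.p6) of 300 bases, most of them upstream of a start site. Windows were found for 30 of the 37 genes, and none for Nfatc1, which also passed the threshold. For a gene with several windows, the one nearest the 5′ end of the gene in GENCODE was taken. Zap70 and Themis passed the threshold in opposite directions, and Cd3g and Cd3d did not pass it. Cd3g and Cd3d are read divergently from start sites 1354 bases apart, and Cd3g had the largest fold change of the CD3 chains in the main fit, though not with the GC trend removed. Capitals mark matches on either strand to GGAA, the core of the sites of ETS factors, and to CAGNTG, an E-box bound by E proteins, and adjoining matches run together. Each is written 5′ to 3′ on the strand of the gene.
Zap70 (chr1:36761548-36761847, plus strand): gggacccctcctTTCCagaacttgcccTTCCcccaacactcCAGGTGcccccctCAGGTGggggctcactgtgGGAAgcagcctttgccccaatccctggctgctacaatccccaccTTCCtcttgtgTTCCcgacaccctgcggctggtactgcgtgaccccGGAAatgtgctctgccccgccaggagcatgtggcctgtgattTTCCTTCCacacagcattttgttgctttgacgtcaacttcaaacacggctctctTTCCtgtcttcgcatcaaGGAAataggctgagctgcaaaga
Themis (chr10:28668110-28668409, plus strand): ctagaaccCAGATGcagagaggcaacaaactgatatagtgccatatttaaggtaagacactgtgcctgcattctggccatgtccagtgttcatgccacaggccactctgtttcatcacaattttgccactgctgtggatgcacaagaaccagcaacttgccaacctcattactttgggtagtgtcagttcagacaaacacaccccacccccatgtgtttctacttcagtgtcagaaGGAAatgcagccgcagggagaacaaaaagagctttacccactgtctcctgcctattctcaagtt
Cd3g (chr9:44980382-44980681, minus strand): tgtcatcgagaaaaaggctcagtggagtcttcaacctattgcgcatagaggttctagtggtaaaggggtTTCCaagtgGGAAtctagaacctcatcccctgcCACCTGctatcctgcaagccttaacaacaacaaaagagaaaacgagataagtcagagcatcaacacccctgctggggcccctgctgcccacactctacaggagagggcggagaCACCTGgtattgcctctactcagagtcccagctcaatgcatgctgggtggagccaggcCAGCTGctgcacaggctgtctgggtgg
Cd3d (chr9:44981536-44981835, plus strand): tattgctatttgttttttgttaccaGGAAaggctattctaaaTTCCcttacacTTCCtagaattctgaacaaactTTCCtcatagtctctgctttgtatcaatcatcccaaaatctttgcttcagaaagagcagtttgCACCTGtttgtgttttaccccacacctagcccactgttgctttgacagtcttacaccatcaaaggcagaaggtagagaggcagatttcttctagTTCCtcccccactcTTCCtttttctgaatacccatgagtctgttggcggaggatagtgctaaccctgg

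The window of Zap70 held 10 GGAA matches and 2 E-box matches, and that of Themis 1 and 1. The window of Cd3g held 2 and 3, and that of Cd3d 6 and 1. GGAA occurred in 28 of the 30 windows (93.3%), compared with 96.0% of all 32817 windows of this length, and the E-box in 19 (63.3%), compared with 51.4%. TGTGGT, a RUNX motif, occurred in 2 of the 30 windows (6.67%, compared with 16.8%), those of Lck and Lat, and in none of the 4 printed here. These are matches of letters only.

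The receptor itself was read first. Cd3d, Cd3e and Cd3g encode the CD3 delta, epsilon and gamma chains, Cd247 encodes the zeta chain, and Cd4 encodes the co-receptor that binds MHC class II. None of the 5 passed the threshold. Cd3g (chr9:44969572-44980431) had the largest fold change of the receptor genes in the main fit, at 573 and 569 FPKM in CTRL, compared with 485 and 519 in KO. Both KO libraries were lower (log2 fold change -0.19, standard error 0.061), with an adjusted p of 0.103 by limma. With the GC trend removed the log2 fold change of Cd3g was -0.054, smaller in size than that of Cd247 (0.14) and Cd4 (-0.11), and with quantile normalization it was -0.21, compared with -0.23 for Cd4. Cd4 was at 277 and 299 FPKM in CTRL, compared with 268 in both KO libraries (log2 fold change -0.10, adjusted p 0.286 by limma).

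The neighbour of Cd3g, Cd3d, was at 212 and 214 FPKM in CTRL, compared with 204 and 211 in KO (log2 fold change -0.037). Its genotypes lay 0.410% apart. Cd3e was at 230.3 and 251 FPKM in CTRL, compared with 220.1 and 251 in KO, and overlapped. Cd247 was at 72.0 and 75.9 FPKM in CTRL, compared with 76.9 and 79.1 in KO (log2 fold change 0.077, and -0.011 with quantile normalization), and 56.4% of its exon bases are shared with Pou2f1 on the opposite strand. The value of Cd247 is uncertain for that reason, because no source used here says if reads were counted by strand.

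The shares of the CD3 chains in their summed level differed slightly between genotypes. Cd3g took 52.7% and 51.3% of the summed FPKM of the 4 CD3 chains in CTRL and 49.2% and 49.0% in KO. The share of Cd247 was 6.62% and 6.84% in CTRL and 7.80% and 7.47% in KO, and that of Cd3d 19.5% and 19.3% in CTRL and 20.7% and 19.9% in KO. The share of Cd3e overlapped between genotypes. These shares are a description with no test, and those of one family add up to a whole, so they do not move independently.

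Among the kinases, 1 of 4 passed the threshold. Zap70 (ENSMUSG00000026117, chr1:36761798-36782818), the kinase that docks on phosphorylated CD3 chains, measured 154 and 148 FPKM in CTRL 1 and CTRL 2, compared with 189 and 185 in KO 1 and KO 2. The mean was 151 ± 4.07 FPKM in CTRL and rose to 187 ± 2.61 in KO (SD over n = 2 libraries each), and the lower KO library stood 20.6% above the higher CTRL library. The log2 fold change was 0.31 (standard error 0.053, adjusted p 0.0395 by limma). Zap70 passed in 7 of 12 other settings of the analysis and missed the threshold in 5 of them, with an adjusted p of 0.0231 to 0.0906 by limma. Quantile normalization brought its log2 fold change down to 0.19.

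Fyn (chr10:39368855-39565381), a Src family kinase that acts beside Lck, was at 168 and 172 FPKM in CTRL, compared with 201 and 196 in KO. Both KO libraries were higher, by 13.9% at the closest (log2 fold change 0.22, standard error 0.052), and the adjusted p of 0.0577 by limma just missed the threshold. It passed in 2 of the 12 other settings, limma-voom on recovered reads (adjusted p 0.0437) and removal of the GC trend (adjusted p 0.0495), and its log2 fold change was 0.11 with quantile normalization. Lck, the kinase that starts the cascade, differed less, at 342 and 355 FPKM in CTRL, compared with 367 and 364 in KO (log2 fold change 0.069, adjusted p 0.408 by limma, and -0.013 with quantile normalization). Fyn made up 32.9% and 32.6% of the sum of Lck and Fyn in CTRL and 35.4% and 34.9% in KO. Prkcq, which encodes protein kinase C theta, was at 119.6 and 117 FPKM in CTRL, compared with 106 and 115 in KO (log2 fold change -0.099, adjusted p 0.321 by limma).

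Of 10 adaptor and effector genes, 1 passed the threshold. Themis (ENSMUSG00000049109, chr10:28668360-28883818) encodes an adaptor that binds Grb2 and is known for its part in the selection of thymocytes. It was one of the lower genes of the set, at 14.7 and 14.4 FPKM in CTRL, compared with 11.4 and 11.1 in KO. The mean was 14.6 ± 0.229 FPKM in CTRL and fell to 11.3 ± 0.185 in KO (SD over n = 2 libraries each), and the higher KO library stood 20.9% below the lower CTRL library. The log2 fold change was -0.34 (standard error 0.065, adjusted p 0.0424 by limma), and the adjusted p in the 12 other settings ranged from 0.0218 to 0.0993, under the threshold in 7 of them. Removal of the trend with GC content brought the log2 fold change of Themis to -0.21, and removal of the trend with exon length, which is 11682 bases for Themis, to -0.25.

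**Figure D2:**
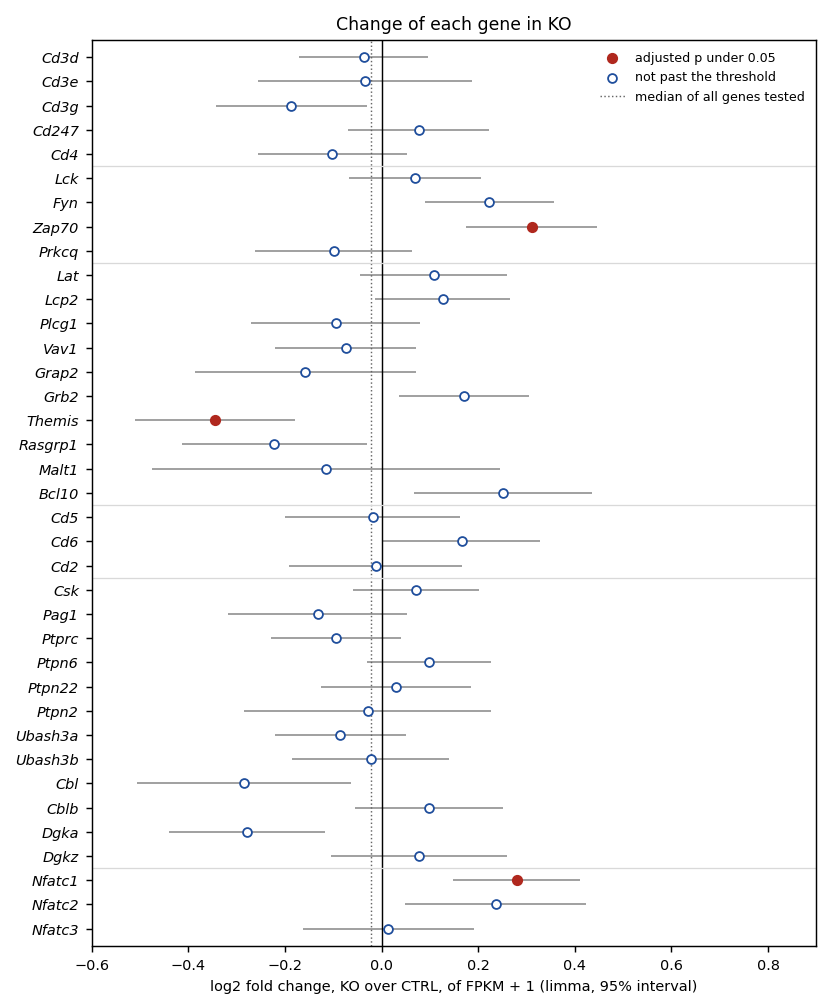
Log2 fold change of each TCR signalling gene, KO over CTRL (x axis, points), with the 95% interval of limma (bars), 2 libraries per genotype. Filled points passed an adjusted p under 0.05 (Zap70, Themis and Nfatc1), and the dotted line is the median of all genes tested, -0.022.

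At the Lat scaffold the values were near those of CTRL. Lat was at 438 and 453 FPKM in CTRL, compared with 467 and 493 in KO (log2 fold change 0.11, adjusted p 0.260 by limma). Lcp2, which encodes SLP-76, was at 172 and 165 FPKM in CTRL, compared with 181 and 186 in KO (log2 fold change 0.13, adjusted p 0.172 by limma). In both genes the KO libraries were the higher ones.

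Grb2, an adaptor that links Lat to Ras exchange factors, was at 90.8 and 87.9 FPKM in CTRL, compared with 102 and 99.6 in KO (log2 fold change 0.17, standard error 0.052, adjusted p 0.0922 by limma). Grap2 encodes GADS, a relative of Grb2 that bridges Lat and SLP-76, and was at 63.8 and 74.8 FPKM in CTRL, compared with 60.7 and 63.0 in KO (log2 fold change -0.16, adjusted p 0.269 by limma). These relatives lay on opposite sides of 0. Grap2 took 41.3% and 46.0% of their sum in CTRL and 37.4% and 38.7% in KO.

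Downstream of the scaffold, Plcg1 (phospholipase C gamma 1) overlapped between genotypes at 68.1 to 77.9 FPKM, and Vav1, a guanine nucleotide exchange factor, was at 47.1 and 49.1 FPKM in CTRL, compared with 46.4 and 44.9 in KO. Rasgrp1, the exchange factor that diacylglycerol brings to Ras, was at 90.4 and 102 FPKM in CTRL, compared with 82.2 and 82.6 in KO. It was lower in both KO libraries, but CTRL 2 stood away from CTRL 1 (log2 fold change -0.22, standard error 0.075, adjusted p 0.110 by limma).

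Bcl10 and Malt1 act together in the path that leads from protein kinase C theta to NF-kB. Bcl10 (chr3:145922804-145934356) was at 40.6 and 41.8 FPKM in CTRL, compared with 52.0 and 46.6 in KO. Both KO libraries were higher (log2 fold change 0.25, standard error 0.072), with an adjusted p of 0.0814 by limma, which stayed above the threshold in the 12 other settings. Malt1 had the widest spread of the set, at 41.4 and 33.2 FPKM in CTRL, compared with 37.7 and 30.9 in KO (log2 fold change -0.11, standard error 0.14). The libraries CTRL 1 and KO 1, in which Malt1 was higher, were also those with the higher sums of myeloid and erythroid markers, and the part of these cells in its value was not tested.

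The surface molecules Cd5, Cd6 and Cd2 were among the most abundant of the set, and 0 of 3 passed the threshold. Cd5, which damps TCR signals and whose level follows the strength of the receptor's self-reactivity, was at 306 and 339 FPKM in CTRL, compared with 312 and 324 in KO (log2 fold change -0.018, 95% interval -0.20 to 0.16). Cd2, an adhesion receptor, was at 567 and 613 FPKM in CTRL, compared with 566 and 604 in KO (log2 fold change -0.012, 95% interval -0.19 to 0.17). The genotypes overlapped for both. Cd6, a relative of Cd5 that lies 50338 bases from it, was at 200.3 and 219 FPKM in CTRL, compared with 235 in both KO libraries (log2 fold change 0.17, adjusted p 0.139 by limma).

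Of the 12 brakes and phosphatases, 0 passed the threshold, and in 8 the genotypes did not overlap, with KO lower in 5 of these (41.7%, compared with 35.5% of all genes tested) and higher in 3 (25.0%, compared with 29.0%). Dgka and Cbl had the largest fold changes. Dgka (chr10:128720134-128744855) encodes diacylglycerol kinase alpha, which removes the diacylglycerol that Rasgrp1 needs. It was at 435 and 421 FPKM in CTRL, compared with 340.1 and 366 in KO, so the higher KO library stood 13.0% below the lower CTRL library. Its log2 fold change was -0.28 (standard error 0.063, adjusted p 0.0554 by limma), just short of the threshold, and it passed in 6 of the 12 other settings.

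The other diacylglycerol kinase, Dgkz, did not share this direction, at 159.6 and 179 FPKM in CTRL, compared with 178 and 179 in KO (log2 fold change 0.077, adjusted p 0.489 by limma). CTRL 2 reached the level of the KO libraries, so the genotypes overlapped. Dgka took 73.2% and 70.2% of the sum of both kinases in CTRL and 65.7% and 67.2% in KO. The summed FPKM of the pair was 595 and 600.1 in CTRL and 518 and 545 in KO.

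The ubiquitin ligases Cbl and Cblb, which mark components of the receptor complex, also lay on opposite sides of 0. Cbl (chr9:44142976-44234049) was at 26.4 and 30.6 FPKM in CTRL, compared with 23.6 and 22.8 in KO (log2 fold change -0.28, standard error 0.086, adjusted p 0.0910 by limma). With the exon length trend removed its log2 fold change was -0.18. Cblb was at 24.1 and 24.7 FPKM in CTRL, compared with 26.8 and 25.6 in KO (log2 fold change 0.099, 95% interval -0.055 to 0.25). Cbl was the larger share of the pair in both CTRL libraries, at 52.3% and 55.3%, and the smaller one in both KO libraries, at 46.8% and 47.1%.

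**Figure D3:**
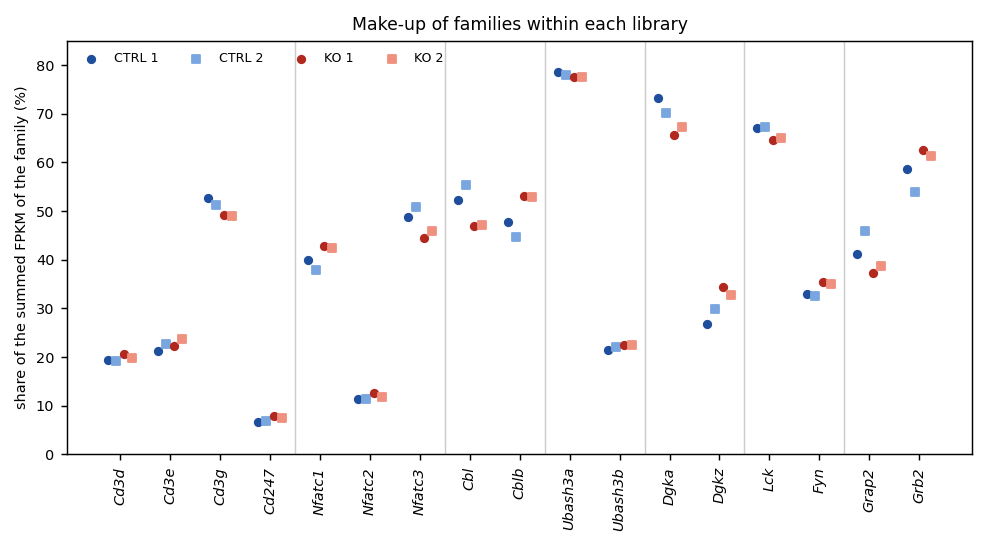
Share of each gene in the summed FPKM of its family (y axis, percent) in each of the 4 libraries, for the CD3 chains, NFAT factors, Cbl, Ubash3, diacylglycerol kinase, Src kinase and Grb2 families. Cbl and Cblb change order between CTRL and KO, and the shares of Cd3g, Nfatc3, Dgka, Lck and Grap2 are lower in both KO libraries.

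The regulators of Lck were at nearly the same level in both genotypes. Ptprc encodes CD45, which removes the inhibitory phosphate from Lck and so also promotes signalling, and it was at 389.9 and 379 FPKM in CTRL, compared with 359.8 and 361 in KO (log2 fold change -0.094, 95% interval -0.23 to 0.040). Csk, which places that phosphate, was at 107 and 109 FPKM in CTRL, compared with 112 and 114 in KO (log2 fold change 0.071, 95% interval -0.060 to 0.20). Pag1, the membrane anchor of Csk, was at 15.0 and 16.5 FPKM in CTRL and 14.3 FPKM in both KO libraries (log2 fold change -0.13, adjusted p 0.257 by limma).

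The tyrosine phosphatases Ptpn6 (SHP-1), Ptpn22 and Ptpn2 had log2 fold changes of 0.099, 0.030 and -0.029. Ptpn6 was at 91.8 and 92.4 FPKM in CTRL, compared with 99.3 and 98.0 in KO, with both KO libraries higher (adjusted p 0.229 by limma), while Ptpn22 (90.8 to 98.0 FPKM) and Ptpn2 (9.37 to 10.9 FPKM) overlapped. Ubash3a and Ubash3b encode the Sts phosphatases that act on Zap70 and related kinases. Ubash3a was at 59.2 and 59.0 FPKM in CTRL, compared with 54.7 and 56.6 in KO (log2 fold change -0.085), and Ubash3b overlapped at 15.9 to 16.7 FPKM (log2 fold change -0.023). Ubash3a held 77.5% to 78.5% of the pair in each of the 4 libraries.

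The NFAT factors, which carry the calcium signal to the nucleus, had 1 of 3 genes past the threshold. Nfatc1 (ENSMUSG00000033016, chr18:80606205-80713071) was at 57.5 and 57.9 FPKM in CTRL, compared with 71.0 and 69.6 in KO. The mean was 57.7 ± 0.278 FPKM in CTRL and rose to 70.3 ± 1.03 in KO (SD over n = 2 libraries each), and the lower KO library stood 20.1% above the higher CTRL library. The log2 fold change was 0.28 (standard error 0.051, adjusted p 0.0420 by limma). Nfatc1 passed in 8 of the 12 other settings, with an adjusted p from 0.0249 to 0.0861 over them.

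Nfatc2 (chr2:168476410-168601657) was at 16.3 and 17.5 FPKM in CTRL, compared with 20.8 and 19.3 in KO, with both KO libraries higher (log2 fold change 0.24, standard error 0.073, adjusted p 0.0936 by limma). Nfatc3, the most abundant of the family, was at 70.0 and 77.7 FPKM in CTRL, compared with 73.7 and 75.3 in KO, and overlapped (log2 fold change 0.014, 95% interval -0.16 to 0.19). The share of Nfatc1 in the summed FPKM of the family was 40.0% and 37.8% in CTRL and 42.9% and 42.4% in KO, and that of Nfatc3 48.7% and 50.8% in CTRL and 44.5% and 45.9% in KO. Nfatc1, Bcl10, Grb2 and Ptpn6 are also expressed in B cells, and all were higher in both KO libraries, as was the sum of B cell markers. The part of such cells in these values was not tested.

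By role, the 4 kinases had a median log2 fold change of 0.15, which fell to 0.048 with quantile normalization, and the 3 NFAT factors one of 0.24. The median was -0.084 for the 10 adaptors and effectors, -0.037 for the 5 receptor genes, -0.012 for the 3 surface molecules and -0.026 for the 12 brakes and phosphatases. With the exon length trend removed it was -0.0055 for the adaptors and effectors and 0.039 for the brakes and phosphatases. The median of the surface molecules was 0.056 without CTRL 2. That of the receptor genes ranged from -0.17 with quantile normalization to -0.014 without KO 1. The summed FPKM of the receptor genes was 1364 and 1409 in CTRL and 1254 and 1327 in KO, and that of the kinases 783 and 791 in CTRL and 862 and 860.4 in KO. The brakes and phosphatases summed to 1433 and 1429 in CTRL and 1330 and 1361 in KO. Dgka alone accounted for the largest part of the difference in the last sum, and Cd3g for that in the receptor sum.

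The wider TCR pathway was read from a list of 55 further genes, of which 53 were in the table and all of these were tested. It too was chosen with earlier results of these data known, so its shares are a description and not independent evidence. In KO, 7 were called higher (13.2%, compared with 5.10% of all genes tested) and 1 lower (1.89%, compared with 4.65%). The median log2 fold change was 0.046, which was -0.0030 without CTRL 1, 0.082 without CTRL 2 and 0.087 with the exon length trend removed. Orai1, the pore of the calcium release-activated calcium channel, was at 34.9 and 37.1 FPKM in CTRL, compared with 53.3 and 46.3 in KO (log2 fold change 0.46, adjusted p 0.0424 by limma). Trat1, which encodes the adaptor TRIM of the TCR complex, was the gene that fell, from 69.6 and 64.7 FPKM in CTRL to 47.9 and 51.0 in KO (log2 fold change -0.43, adjusted p 0.0365 by limma). Dok1, an adaptor that damps Ras signals, measured 18.7 FPKM in both CTRL libraries, compared with 25.2 and 25.8 in KO (log2 fold change 0.43, adjusted p 0.0351 by limma).

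Sla2, an adaptor that lowers surface TCR through Cbl, was at 18.4 and 19.1 FPKM in CTRL, compared with 24.2 and 25.0 in KO (log2 fold change 0.38, adjusted p 0.0379 by limma). The remaining genes called higher were Sla, Sh2d2a, Ptprcap and Hras, with log2 fold changes of 0.33 to 0.35. The 53 genes had both KO libraries higher in 24 cases (45.3%, compared with 29.0% of all genes tested) and lower in 14 (26.4%, compared with 35.5%).

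A list of 15 genes that TCR signals are known to induce had 4 genes called higher (26.7%, compared with 5.10% of all genes tested) and 1 lower (6.67%, compared with 4.65%). This list was chosen with earlier results of these data known, so its shares and median are a description and not independent evidence. Its median log2 fold change was 0.25, compared with -0.018 for the TCR signalling genes and -0.022 for all genes tested. Of the 15, 14 had a log2 fold change above 0, and the median ranged from 0.15 to 0.34 over the alternatives. Both KO libraries were higher in 8 of the 15 (53.3%, compared with 29.0% of all genes tested) and lower in 1 (6.67%, compared with 35.5%). Irf4, a transcription factor induced in proportion to TCR signal strength, was at 18.0 and 16.7 FPKM in CTRL, compared with 35.7 and 28.0 in KO (log2 fold change 0.83, adjusted p 0.0355 by limma). Nfkbid, which encodes an atypical inhibitor of NF-kB, was at 89.5 and 94.9 FPKM in CTRL, compared with 142 and 119 in KO (log2 fold change 0.49, adjusted p 0.0462 by limma). Tnfrsf9 and Tnfrsf4, which encode the costimulatory receptors 4-1BB and OX40, rose by 0.38 and 0.31 on the log2 scale.

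Myc was the only gene of the 15 that was lower, with a log2 fold change of -0.54. The most immediate genes of the list did not pass the threshold. Egr1, Egr2, Egr3 and Nr4a2 had both KO libraries above both CTRL libraries, whereas the genotypes overlapped for Nr4a1 and Nr4a3. The log2 fold changes of Egr2, Egr3 and Nr4a2 were 0.20, 0.25 and 0.47. Nr4a1 was at 229 and 280.3 FPKM in CTRL, compared with 302 and 273 in KO and overlapped. Egr1 was at 75.6 and 69.5 FPKM in CTRL, compared with 104 and 77.1 in KO, and Nr4a3 at 13.5 and 19.5 FPKM in CTRL, compared with 31.7 and 18.3 in KO. All of these immediate genes were named after their values were seen, and KO 1 was the highest of the libraries in each. KO 1 also had the highest sums of B cell, myeloid and erythroid markers, and the part of these cells in the values of the TCR response genes was not tested.

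**Figure D4:**
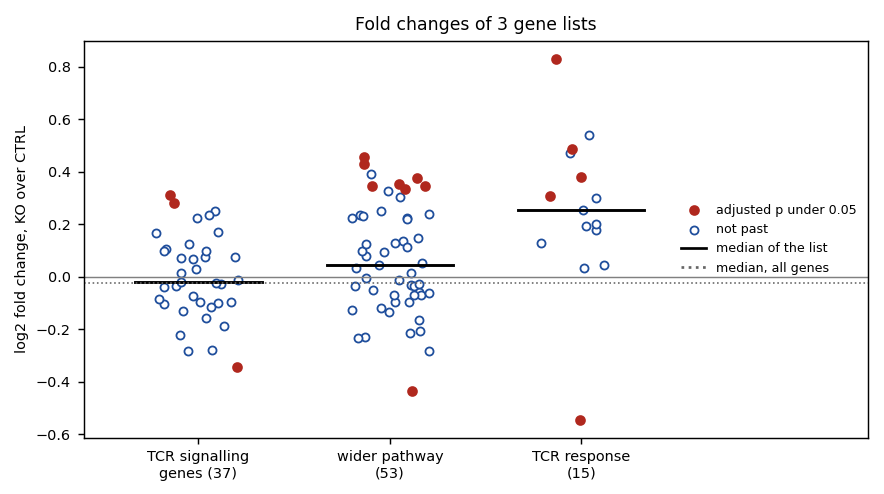
Log2 fold change, KO over CTRL (y axis), of the 37 TCR signalling genes, the 53 wider pathway genes and the 15 TCR response genes. Each point is a gene, filled where the adjusted p was under 0.05, and bars are the medians (-0.018, 0.046 and 0.25).

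The calls depended on the settings of the analysis. The smallest log2 fold change called among all genes was 0.24 in size (Mta2). With all 19888 genes above 0 tested, 0 of the TCR signalling genes passed in either direction, as did 0 genes in all, although 6 TCR signalling genes were higher and 5 lower at an unadjusted p under 0.05 in the same fit. All genes under that level in this fit numbered 4463. The main fit had 7 and 5 of the 37 at that level, compared with 1855 and 2099 of all 11399 genes tested. Quantile normalization had 4 and 13 and removal of the GC trend 9 and 4, so the balance of directions moved with these settings. Over all genes, 3676 were under that level with quantile normalization and 3800 with the GC trend removed, compared with 3954 in the main fit. Limma-voom on recovered reads called 3 higher and 2 lower of the 37, compared with 881 and 1007 of all 11399 genes tested. With 1 library left out, whichever it was, 0 of the TCR signalling genes and at most 1 of all genes passed. Zap70 kept a log2 fold change of 0.28 to 0.34, Nfatc1 of 0.27 to 0.29 and Themis of -0.36 to -0.33 in them. Over all 16 alternative fits, 23 of the 37 genes kept the direction of their fold change and 14 changed sign at least once.

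**Figure D5:**
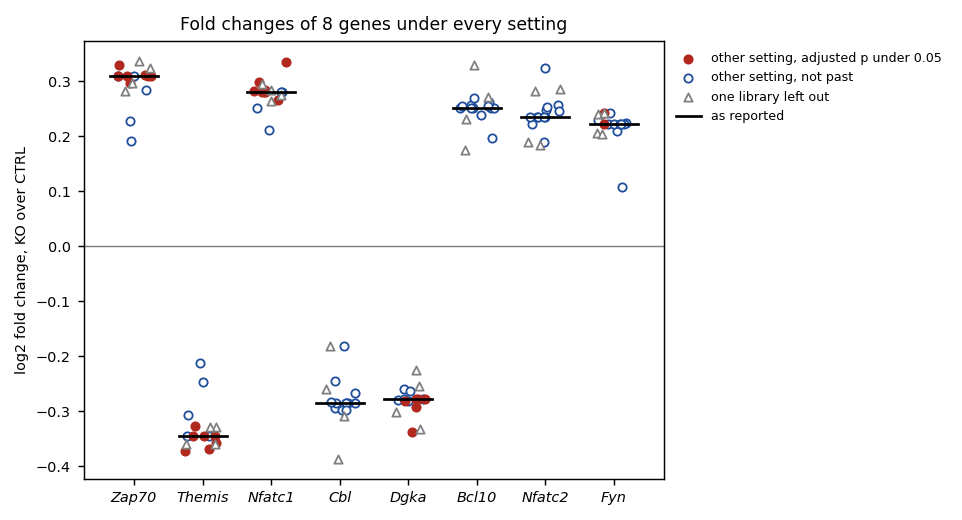
Log2 fold change, KO over CTRL (y axis), of the 3 genes past the threshold and the 5 next largest, under each alternative setting (circles, filled where the adjusted p was under 0.05) and with 1 library left out (triangles). The direction of the 8 genes is the same in each fit, and no triangle passed the threshold.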

How the data were processed

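RNA-seq was performed by the study on splenic Treg cells, with 2 CTRL and 2 KO libraries, each from 2 pooled mice and approximately 1000000 sorted cells. Per the submitters' processing notes and the study's methods, the authors used FastQC, mapped reads to mm10 (GRCm38) with HISAT2 (2.2.1), counted them with featureCounts (2.0.1) and compared genotypes with edgeR (3.34.0). The values deposited by the authors were FPKM. How multi-mapped reads, strand and gene length were handled, and with which annotation, was not given in the sources used here. Columns named WT were read as the CTRL libraries of the same number. Nothing else was left out.

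KO was compared with CTRL by limma (3.58.1, under R 4.3.3). The model (lmFit, then eBayes with an intensity trend) took log2(FPKM + 1) of the 11399 genes that reached 1 FPKM in 2 or more libraries. This test was used in place of the count test of the study because the values are not counts. Tests were two-sided with Benjamini-Hochberg adjustment and a threshold of 0.05. Such fold changes understate changes of low genes. With 2 libraries per group an exact permutation test could not reach the threshold. Libraries are separate pools of mice. The p rests on the spread between them, with the variance of each gene drawn by eBayes toward that of genes of similar level.

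Reads were recovered from whole-number ratios of FPKM between libraries (tolerance 0.003), for 19888 of 19888 genes above 0 (100%). They are lower bounds, since a factor common to a gene's 4 counts cannot be seen. Positions, exon lengths and GC content came from GENCODE vM21 (GRCm38). Of 24087 genes, 24062 were matched, and 50 identifiers were listed more than once. The limma fit, but not the recovery of reads, was also run on simulated counts that had the same dispersion for each gene. Its outcome is not used here.

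The genes named in full were those past the threshold and the 5 with the next largest fold changes. The gene set, the further lists and the settings were chosen with earlier results of these data known. Shares within families, sums and medians are descriptions. Some genes of the further lists and markers are not reported here by name and remain in the counts and sums. Other settings were a pseudocount of 0.1, no filter, mean FPKM above 5 in either group, 3 other scalings, eBayes without trend or robust, the replicate number as a block, limma-voom on recovered reads, and removal of the exon length or GC trend. Each library was also left out in turn. Same-numbered libraries share only a number. Tables were handled in Python 3.11.15 (pandas 2.3.3, numpy 2.4.6).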

Additional observations from a re-analysis of the deposited data

How the results depend on the processing

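With 2 libraries per genotype, the smallest log2 fold change called was 0.24 in size, and a p that missed the threshold does not show equal levels. With all 19888 genes above 0 tested, 0 genes were called higher and 0 lower, and so were 0 TCR signalling genes, 0 wider pathway genes and 0 TCR response genes in each direction. Before adjustment, 4463 genes were under 0.05. That setting tests more genes, and the cause was not tested further. Without the variance trend 315 genes were higher, 0 TCR signalling genes were higher and 0 lower, 1 wider pathway gene was higher and 0 lower, and 1 TCR response gene was higher. Quantile normalization left 0 TCR signalling genes higher and 1 lower, which was Dgka and not Themis, 4 wider pathway genes higher and 1 TCR response gene higher. With the exon length trend removed, 335 genes were lower in all, 1 TCR signalling gene (Nfatc1) was higher and 0 lower, 2 TCR response genes were higher, and the medians were 0.032 for the TCR signalling genes and 0.087 for the wider pathway. With the GC trend removed, 1 TCR signalling gene (Fyn) was higher and 0 lower, 2 TCR response genes were higher, and the TCR signalling median was 0.025. limma-voom on recovered reads called 881 genes higher and 1007 lower, 2 TCR signalling genes lower and 2 wider pathway genes lower. Mean FPKM above 5 gave 2 TCR signalling and 2 wider pathway genes lower, and robust eBayes and the same FPKM sum each gave 2 TCR signalling genes lower. In each of these the second lower TCR signalling gene was Dgka. The causes were not tested.

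The replicate numbers are not linked to a litter or day by the labels. Adding them as a block gave 968 higher and 805 lower genes, and 2 lower TCR signalling genes (Themis and Dgka). Over all genes tested, deviations of CTRL 1 and KO 1 from the means of their groups were correlated by 0.342 (Pearson) and 0.055 (Spearman). The block changed no other count by more than 1.5 times.

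With 1 library left out, where the lone library is assumed to vary like the others, 0 to 1 genes were higher and 0 to 1 lower, with 0 of each list in each direction. The TCR signalling median ranged from -0.045 to 0.031, that of the wider pathway from -0.0030 to 0.082 and that of the TCR response list from 0.15 to 0.34. Setd2 stayed lower and short of the threshold in each fit.

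Signs turned for 14 small fold changes. With 1 library left out, log2 fold changes ranged from -0.13 to 0.059 for Cd3e, -0.27 to 0.040 for Malt1, -0.093 to 0.056 for Cd5, -0.067 to 0.044 for Cd2, -0.025 to 0.085 for Ptpn22, -0.11 to 0.056 for Ptpn2, -0.048 to 0.0029 for Ubash3b, -0.0044 to 0.16 for Dgkz and -0.060 to 0.088 for Nfatc3. Under other settings the reversed values were with quantile normalization -0.011 (Cd247), -0.013 (Lck), 0.0020 (Cd2), -0.043 (Csk), -0.051 (Ptpn22), 0.027 (Ptpn2), 0.0010 (Ubash3b), -0.053 (Dgkz) and -0.073 (Nfatc3), with the GC trend removed 0.025 (Cd3e), 0.055 (Malt1), -0.015 (Csk), 0.026 (Ptprc), 0.088 (Ptpn2) and -0.0051 (Dgkz), with the exon length trend removed 0.023 (Malt1), 0.046 (Ptprc), 0.0084 (Ubash3a) and 0.032 (Ubash3b), with median-ratio scaling 0.00044 (Cd5) and 0.0069 (Cd2), and with the same FPKM sum -0.000082 (Nfatc3). The causes were not tested.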
